A study of Mus musculus with 35 samples.

Results

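Iron reaches the cells of the skin bound to transferrin, is stored in ferritin, and leaves cells through 1 exporter, ferroportin. The 10 genes described here encode that route and the proteins that close it during infection or injury: the hepcidins Hamp and Hamp2, the siderophore-binding protein lipocalin 2 (Lcn2), the haemoglobin-binding protein haptoglobin (Hp), ferroportin (Slc40a1), the transferrin receptor (Tfrc), the ferritin heavy and light chains (Fth1, Ftl1), the phagosomal metal transporter NRAMP1 (Slc11a1) and transferrin (Trf). They were chosen by symbol from the 36106 genes of the count table, and all 10 were found. The choice was made on results of these libraries, in which Hamp2 was among the largest decreases of week 4. The radiated against control difference of week 4 is therefore given below as a description, with no test, for every member. Tests of radiated skin of week 4 against sham use the same radiated libraries, so they are not independent of that choice.

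Skin of female C57BL/6J mice, 10 weeks old, was profiled by bulk RNA sequencing in 35 libraries. Radiated skin came from the left flank after 25 Gy given at 3.6 Gy per min over 420 s, was shaved after the radiation, and was sampled at week 1, 2, 3 or 4 (n = 4 each). Control skin carried the same week and replicate numbers (n = 4 each), and sham skin came from unirradiated mice (n = 3). With 19 mice behind 35 libraries, radiated and control libraries that share a week and a number were treated as a pair from 1 mouse. No label states this pairing outright, and if it holds, control skin is skin of an irradiated mouse. The labels do not say where on the body it was taken or whether it was shaved. Different weeks are different mice.

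Hepcidin is a peptide hormone that binds ferroportin and causes its degradation, so that iron stays inside the cell. In the liver its gene is switched on by bone morphogenetic proteins (BMP) acting through SMAD factors, and by interleukin 6 acting through STAT3. Mice carry a second copy, Hamp2, whose product has not been found to act on iron as that of Hamp does. Ferritin, ferroportin and transferrin receptor mRNAs carry iron-responsive elements, short hairpins that bind the iron regulatory proteins and tie translation or mRNA stability to cell iron. The part of that control that acts on translation does not show in RNA levels.

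The hepcidin promoters are shown first, because they hold the sites at which the BMP and interleukin 6 routes act on Hamp. Both genes lie on the minus strand of mouse chromosome 7 in GRCm38, Hamp at chr7:30942368-30944032 and Hamp2 at chr7:30922372-30924681, with 17686 bases between them. The sequences below are the 150 bases before each RefSeq start site (GRCm38.p6), 5′ to 3′, at chr7:30944030-30944179 for Hamp and chr7:30924182-30924331 for Hamp2. Capitals mark TTCNNNGAA, the core of STAT sites, and GGCGCC, the core of the BMP-responsive element.
Hamp: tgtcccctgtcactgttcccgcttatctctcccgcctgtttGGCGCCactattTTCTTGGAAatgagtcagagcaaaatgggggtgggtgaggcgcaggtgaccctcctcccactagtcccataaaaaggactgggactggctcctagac
Hamp2: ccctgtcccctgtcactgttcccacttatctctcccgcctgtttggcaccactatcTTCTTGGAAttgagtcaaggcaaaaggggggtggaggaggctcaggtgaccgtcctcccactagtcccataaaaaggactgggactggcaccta
Over 300-base windows around the start sites, the pair of promoters had the same base at 276 of 297 aligned positions (92.9%). Each held 1 STAT core, starting at position -97 in Hamp and -94 in Hamp2. Hamp also held the BMP core, at -109, and the Hamp2 window held none. Both letter strings read the same on both strands, and the matches do not overlap. Of 32851 RefSeq promoters of that length, 8.3% held the STAT core and 11.9% the BMP core, so a match alone says little, and the binding of a factor was not measured here.

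The hairpins of the other members are shown because they mark which mRNAs the iron regulatory proteins can bind. A search of the GENCODE M21 transcripts (GRCm38) used a C, 5 bases, the loop CAGTG, any base, and 5 bases able to pair with the first 5, G with T allowed, on the strand of the transcript. It found 7 sites in untranslated regions of the members, written 5′ to 3′ with the loop in capitals. Fth1, Ftl1 and Slc40a1 each had 1 in the 5′ untranslated region, where binding blocks translation, and Tfrc had 4 in the 3′ untranslated region, where binding protects the mRNA.
Fth1 (chr19:9982738-9982754, plus strand): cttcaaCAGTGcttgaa
Ftl1 (chr7:45459785-45459801, minus strand): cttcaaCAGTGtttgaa
Slc40a1 (chr1:45925471-45925487, minus strand): cagctaCAGTGttagct
Tfrc (chr16:32631225-32631241, plus strand): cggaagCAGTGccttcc
Tfrc (chr16:32631604-32631620, plus strand): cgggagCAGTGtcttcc
Tfrc (chr16:32631669-32631685, plus strand): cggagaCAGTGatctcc
Tfrc (chr16:32631716-32631732, plus strand): cgggaaCAGTGtttccc
The same pattern occurred anywhere in a transcript of 294 of 21901 protein-coding genes (1.34%). The remaining members are also protein-coding, and in GENCODE M21 the genes lie at chr2:32384633-32388252 (Lcn2, minus strand), chr8:109575128-109579172 (Hp, minus), chr1:45908068-45926523 (Slc40a1, minus) and chr16:32608920-32632794 (Tfrc, plus). The ferritin genes lie at chr19:9980598-9985098 (Fth1, plus) and chr7:45457944-45459884 (Ftl1, minus), Slc11a1 at chr1:74375195-74386062 (plus) and Trf at chr9:103204001-103230444 (minus).

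Library totals ran from 17362853 to 28487885 counts. Levels are counts-per-million values (CPM) on TMM-scaled libraries, and 3 counts, taken as the floor, correspond to 0.105 to 0.173 CPM. The skin samples differed in composition. Summed skeletal muscle markers ranged from 3020 to 7910 CPM in radiated and from 17600 to 33300 CPM in control skin of week 3. Summed neutrophil markers ranged from 101 to 822 CPM against 9.34 to 14.8 CPM in the same groups, and macrophage markers from 619 to 1760 CPM against 237 to 536 CPM. In week 4, summed fibroblast markers ranged from 17300 to 29800 CPM in radiated and from 1240 to 2660 CPM in control skin, and keratinocyte markers from 10900 to 15600 CPM against 20600 to 23000 CPM. The keratinocyte markers did not move together, as Krt14 rose by 2.03 (adjusted p = 3.4e-06) while Krt15, Krt10 and Krt5 fell by 4.48, 2.59 and 0.84 (adjusted p = 0.000841, 0.0038 and 0.000541). The part of these shifts in the members' differences was not tested. Summed liver markers stayed between 0.441 and 5.37 CPM in every library, over 5 genes that include albumin. In bulk samples, fewer cells of a type and less RNA per cell cannot be told apart.

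Hamp2 was nearly lost from radiated skin in weeks 3 and 4, whereas Hamp was close to absent in every group. Hamp counts were 0 in 15 of 35 libraries, at or under the floor of 3 counts in 23, and 24 at most. Summed over the libraries of a group, they were 11, 7, 8 and 3 in radiated skin of weeks 1 to 4. In control skin the sums were 44.1, 1, 20.1 and 44. Hamp was lower in radiated skin in 4 of 4 pairs in weeks 1 and 4, with overlapping ranges. Over all libraries Hamp2 had 4963.87 counts and Hamp 144.1, a 34.4-fold difference between transcripts of 420 and 410 bases. Hamp passed the filter on low counts in none of the 13 comparisons and was not tested. The transcripts were identical at 94.6% of aligned bases, and 128 of the 553 distinct 31-base words of Hamp2 also occur in Hamp. The count of each gene was not a whole number in 2 of 35 libraries, so few reads had been split between them. Both genes overlap Gm44662, a long non-coding RNA gene on the other strand, and whether the counting used strand is not given in the sources used here.

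In sham skin Hamp2 stood at 19.6, 8.19 and 8.67 CPM. In week 1 it was 5.59, 0.701, 7.31 and 0.786 CPM in radiated libraries 1 to 4 and 7.21, 7.46, 13.7 and 5.55 CPM in the control libraries. All 4 radiated libraries lay below their paired control, but the ranges overlapped and the difference missed the threshold (log2 ratio -1.22 from the fitted model, SE 0.655, adjusted p = 0.412). In week 2 the radiated libraries spread from 0 to 11.1 CPM and the control libraries from 1.52 to 6.67 CPM, with 2 pairs in each direction (adjusted p = 0.964). In week 3 radiated skin held 0.274, 1.40, 0.0381 and 0.783 CPM against 12.5, 4.79, 16.0 and 11.8 CPM in control skin. The groups did not overlap, and the mean was 18.1-fold lower in radiated skin (0.623 ± 0.603 against 11.3 ± 4.71 CPM, SD, n = 4). Hamp2 fell by 4.17 on the log2 scale in week 3 (SE 0.735, adjusted p = 0.00417). It passed the filter on low counts through the control libraries, and in the fit of every gene with a count, with no such filter, the adjusted p was 0.00268.

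In week 4 the 4 radiated libraries held 0.0427, 0.776, 0 and 0.0446 CPM, which are 1, 20, 0 and 1 counts. The control libraries held 6.93, 23.4, 9.61 and 19.2 CPM. The highest radiated library lay below every control library, and the means differed 68.5-fold (0.216 ± 0.374 against 14.8 ± 7.79 CPM). The log2 ratio was -5.99 (SE 0.806). It lay between -8.75 and -5.57 when 1 library at a time was left out, at -8.75 without radiated replicate 2, which held 20 of the 22 radiated counts. From highest to lowest mean the groups ran control week 4, sham, control week 3, control week 1, control week 2, radiated week 2, radiated week 1, radiated week 3 and radiated week 4. Each neighbouring pair in that order overlapped in range. The radiated minus control difference of Hamp2 did not pass the test of variation over weeks 1 to 3 (adjusted p = 0.184, against 3.15% of 18959 genes that did), so the weeks are not shown to differ for it.

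**Figure D1:**
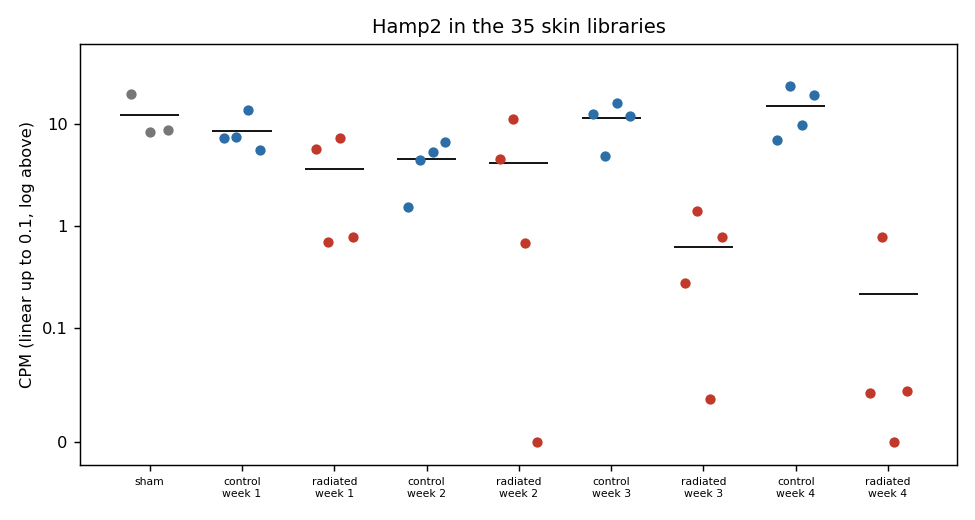
Hamp2 level (CPM, linear up to 0.1 and logarithmic above) in each of the 35 libraries, by group. Points are libraries and bars are group means. All 8 radiated libraries of weeks 3 and 4 lie at or below 1.40 CPM, and the control libraries of those weeks lie at 4.79 CPM or more.

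Against sham skin, Hamp2 in radiated skin of week 3 was 19.5-fold lower by means (log2 ratio -4.26, SE 0.799, adjusted p = 0.0118, and 0.00627 with no filter on low counts, which it passed through the sham libraries). Radiated skin of week 1 was lower than sham without overlap but missed the threshold (log2 ratio -1.76, SE 0.744, adjusted p = 0.272). Control skin of week 2 was also lower than sham without overlap, at a mean of 4.49 ± 2.18 against 12.2 ± 6.48 CPM (log2 ratio -1.46, SE 0.484, adjusted p = 0.133). In week 4 the radiated mean was 56.4-fold below sham, given with no test, and 20 of the 22 radiated counts came from replicate 2. The control mean of that week was 1.21 times the sham mean.

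By rule, the 3 genes with the pattern most like that of Hamp2 over the 35 libraries were Scd3 (Pearson r = 0.968), Paqr7 (0.946) and Serpinb6e (0.921). Over the 19 sham and control libraries alone they were Gm5678 (0.878), Paqr7 (0.874) and Otogl (0.851). The correlations are of log2 CPM, with libraries of one group and the pairs of a mouse among the points. Scd3, a stearoyl-CoA desaturase known from the sebaceous gland, stood at 9.52, 35.4, 10.5 and 7.85 CPM in radiated skin of week 4. Its control libraries held 384, 362, 174 and 273 CPM, and as with Hamp2 replicate 2 was the highest radiated library.

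Because Scd3 led that list, 8 sebaceous gland markers were added after these values were seen (Scd3, Mc5r, Awat1, Awat2, Far2, Krt79, Elovl3, Soat1), and they are given with no test. Their summed level was 435 to 929 CPM in radiated and 726 to 1490 CPM in control skin of week 4. It was 153 to 833 CPM in radiated and 472 to 848 CPM in control skin of week 3, with overlap in both weeks. The medians were 702 CPM in radiated and 1160 CPM in control skin of week 4, and 539 and 758 CPM in week 3. The sum includes Scd3, which was picked for its likeness to Hamp2. Soat1, which esterifies cholesterol, held 159 to 274 CPM in radiated and 128 to 304 CPM in control skin of week 4. Mc5r, the melanocortin receptor of the sebaceous gland, had a mean of 4.88 ± 2.83 CPM in radiated against 17.1 ± 9.53 CPM in control skin. The part of gland content in the Hamp2 difference was not tested.

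Ferroportin, the target of hepcidin, did not pass the test between radiated and control skin in weeks 1 to 3. Its level in week 3 was 20.4, 9.42, 7.20 and 11.8 CPM in radiated libraries against 11.4, 5.53, 9.11 and 13.0 CPM in control libraries. In week 4 the radiated libraries held 20.7, 14.0, 28.9 and 12.8 CPM and the control libraries 17.4, 21.4, 23.3 and 20.5 CPM. The ranges overlapped in every week, 2 of 4 pairs were higher in each of weeks 3 and 4, and the adjusted p was 0.598, 0.671 and 0.492 in weeks 1, 2 and 3. These p-values do not show that the levels were alike.

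The larger contrast for Slc40a1 was with sham skin, at 24.9, 174 and 109 CPM, where every other library of the study held 43.1 CPM or less. Radiated skin was lower than sham in all 4 weeks, with log2 ratios of -2.64 (SE 0.493, adjusted p = 0.0298), -3.06 (SE 0.547, 0.0204), -3.02 (SE 0.605, 0.0143) and -2.38 (SE 0.561, 0.0150) from week 1 to week 4. Control skin was lower in week 3 (-3.41, SE 0.564, adjusted p = 0.0119) and week 4 (-2.33, SE 0.511, adjusted p = 0.0477), and missed the threshold in week 1 (-2.24, SE 0.620, 0.0691) and week 2 (-2.65, SE 0.631, 0.0634). These 8 comparisons share the 3 sham libraries. Without sham replicate 2 the calls in radiated skin of all 4 weeks were lost, at log2 ratios of -2.03, -2.45, -2.38 and -1.73. The week 1 and week 2 calls were also lost without sham replicate 3 and without radiated replicate 3, and that of week 1 without radiated replicate 1 or 4. The control call of week 3 kept an adjusted p of at most 0.0423 in these leave-outs, and that of week 4 was lost in 6 of 7, all but sham replicate 1.

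Summed markers of the growing hair follicle, 6 genes led by the inner root sheath keratins, stood at 2080, 27200 and 32800 CPM in sham libraries 1 to 3. The 32 other libraries lay between 10.7 and 6550 CPM. Sham replicate 1 was thus lowest both for these markers and for Slc40a1. The library with the most Slc40a1 outside the sham group, control week 1 replicate 1 at 43.1 CPM, was also the one at 6550 CPM. Not all libraries paired in this way. Control week 3 replicate 4 held 1870 CPM of the markers and 13.0 CPM of Slc40a1, and control week 1 replicate 4 held 1400 and 15.3 CPM. The control libraries of week 4 held 30.7 to 44.1 CPM of the markers and 17.4 to 23.3 CPM of Slc40a1. Krt32, a hair keratin, and Nfe2l3, a transcription factor, were among the genes most like Slc40a1 over the 19 sham and control libraries (r = 0.958 and 0.971), and Pdzrn3 led over all 35 (r = 0.866). The part of hair growth in the sham contrast was not tested.

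The genes of iron withholding Lcn2, Hp and Slc11a1 rose in radiated skin of week 3. Lcn2, secreted by neutrophils and epithelium to take up the iron-carrying siderophores of bacteria, stood at 1.17 CPM or less in sham skin. It stayed low in radiated skin of week 1 (0.213 to 1.66 CPM) and week 2 (0.663 to 1.52 CPM). In week 3 the radiated libraries held 141, 22.6, 68.2 and 7.00 CPM against 2.84, 0.573, 0.139 and 0.571 CPM in control skin, with no overlap. The log2 ratio was 5.88 (SE 1.10, adjusted p = 0.00523, and 0.00325 with no filter on low counts, which Lcn2 passed through the radiated libraries). In week 4 the radiated libraries held 31.9, 25.5, 63.0 and 68.1 CPM and the control libraries 2.12, 0.531, 1.37 and 1.61 CPM, again without overlap (log2 ratio 5.08, SE 0.456, no test). Against sham, Lcn2 was higher in radiated skin by 6.50 in week 3 (SE 1.22, adjusted p = 0.0117) and by 6.16 in week 4 (SE 0.669, adjusted p = 0.000527) on the log2 scale. With 3, 27 and 14 counts in the sham libraries, Lcn2 passed the filter on low counts through the radiated libraries here too. The week 4 test also uses the radiated libraries behind the choice of the genes.

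Haptoglobin, which binds free haemoglobin and delivers it to CD163 on macrophages, was present in all skin at 39.3 CPM or more. The 3 sham libraries were close together at 55.8, 53.6 and 53.6 CPM. In week 2, radiated skin held 119, 68.6, 154 and 137 CPM and control skin 105, 39.3, 100 and 56.8 CPM, higher in 4 of 4 pairs with overlap. That difference missed the threshold (log2 ratio 0.67, SE 0.338, adjusted p = 0.418). In week 3 the radiated libraries reached 942, 410, 796 and 262 CPM against 53.2, 71.5, 80.2 and 132 CPM, without overlap. Hp rose by 2.87 on the log2 scale (SE 0.442, adjusted p = 0.00253), a 7.15-fold difference of means.

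In week 4 Hp stood at 790, 661, 880 and 932 CPM in radiated and 59.8, 50.1, 39.6 and 92.1 CPM in control skin, a 13.5-fold difference of means (log2 ratio 3.76, SE 0.264, no test). Against sham, Hp was higher in radiated skin of week 2 (1.14, SE 0.262, adjusted p = 0.0429, lost without any of the sham libraries or radiated replicate 3 or 4), and it stood higher by 3.52 in week 3 (SE 0.463, 0.00513) and 3.95 in week 4 (SE 0.176, 3.73e-05). Control skin of week 1, at 122 ± 55.1 CPM, had a similar log2 ratio to sham and missed the threshold (1.16, SE 0.338, adjusted p = 0.0770). In the test of variation over weeks 1 to 3, the radiated minus control difference of Hp (adjusted p = 0.0101) and Lcn2 (adjusted p = 0.0162) changed with time, calls that were lost without replicate 1, 2 or 3 of every group. The week 1 mean of Hp was 0.627 times that of control skin, and the week 2 and week 3 means were 1.59 and 7.15 times it. Slc11a1 passed this test with the replicate pairs as a block (adjusted p = 0.0365, 3.78% of genes) and not without (0.185).

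NRAMP1, encoded by Slc11a1, pumps iron and manganese out of the phagosome of macrophages and neutrophils. Its radiated libraries of week 1 held 8.45, 4.10, 9.04 and 4.02 CPM against 4.98, 4.84, 3.86 and 1.89 CPM in control skin, with overlap (log2 ratio 0.73, SE 0.375, adjusted p = 0.399). In week 2 they held 18.7, 3.74, 6.82 and 5.01 CPM against 4.32, 1.68, 1.18 and 1.20 CPM, higher in 4 of 4 pairs. The log2 ratio of week 2 was 2.03 (SE 0.592, adjusted p = 0.185 without and 0.0165 with the pairs as a block). In week 3 radiated skin reached 59.2, 45.1, 66.2 and 19.2 CPM against 3.96, 8.68, 8.41 and 4.22 CPM, without overlap, a rise of 2.93 (SE 0.429, adjusted p = 0.00218). In week 4 it stood at 28.0, 15.7, 17.8 and 28.4 CPM against 1.85, 2.48, 2.39 and 1.81 CPM without overlap (log2 ratio 3.40, SE 0.245, no test). Against sham it rose by 4.04 in week 3 (SE 0.456, adjusted p = 0.00462) and by 2.96 in week 4 (SE 0.292, adjusted p = 0.00039).

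Leukocyte markers moved with these genes. In week 3, 6 of 7 macrophage markers rose in radiated against control skin, and in week 4 all 7 did (13.6% and 24.2% of all genes rose). Most neutrophil markers passed the filter on low counts only through radiated skin of those weeks, so only their levels are given. Summed macrophage markers in week 2 ranged from 277 to 1090 CPM in radiated and from 118 to 276 CPM in control skin, and 5 of 7 passed only with the pairs as a block, where 3.7% of all genes did. Summed neutrophil markers in week 4 ranged from 210 to 447 CPM against 10.5 to 14.7 CPM. Ly6g, a defining neutrophil gene, was at 0 in all control libraries of week 4 and at most 1.03 CPM in radiated ones. The genes most like Slc11a1 over 35 libraries were Nckap1l (r = 0.973), Pik3ap1 (0.972) and Pirb (0.972), all known from leukocytes, and those most like Lcn2 were Ifitm1 (0.905), Prg4 (0.900) and Nlrp12 (0.896). For Hp they were the basement membrane collagens Col4a2 (0.948) and Col4a1 (0.937) and then Ddah1 (0.935). The part of leukocyte number in these rises was not tested.

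**Figure D2:**
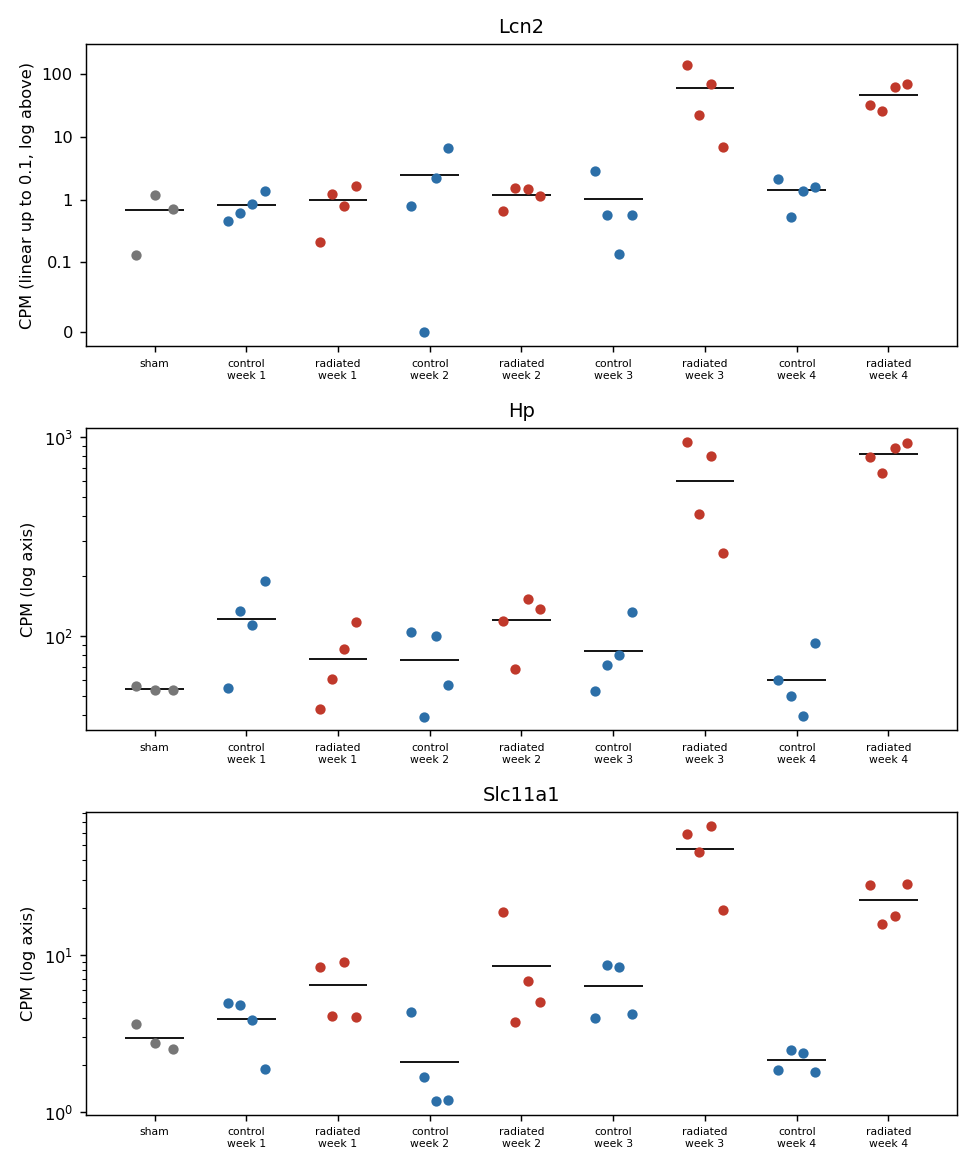
Lcn2, Hp and Slc11a1 levels in CPM in each library, by group, on logarithmic axes (the Lcn2 axis is linear up to 0.1). Points are libraries and bars are group means. In weeks 3 and 4 every radiated library lies above every control library of its week for all 3 genes.

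Of the ferritin mRNAs, Ftl1 rose in radiated skin of week 3 and Fth1 missed the threshold. Ftl1, the light chain that helps build the iron core, held 190, 126, 387 and 73.5 CPM in radiated and 50.2, 99.6, 84.8 and 52.5 CPM in control skin of week 3. It was higher in 4 of 4 pairs, with overlap, and rose by 1.46 on the log2 scale (SE 0.468, adjusted p = 0.0439). Fth1, the heavy chain that oxidises incoming iron, held 628, 367, 964 and 176 CPM against 187, 271, 190 and 259 CPM, higher in 3 of 4 pairs. Fth1 missed the threshold (log2 ratio 1.27, SE 0.437, adjusted p = 0.0565) and passed it with total-count scaling (adjusted p = 0.0196). For both chains radiated replicate 4 was the lowest library of its group.

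In week 4 the ferritin groups no longer overlapped. Fth1 stood at 318, 267, 444 and 428 CPM in radiated and 154, 182, 182 and 195 CPM in control skin, and Ftl1 at 127, 113, 159 and 135 CPM against 44.3, 54.3, 54.5 and 56.8 CPM. The log2 ratios were 1.04 (SE 0.164) and 1.35 (SE 0.123), with no test. Ftl1 shares 57.7% of its 31-base words with other genes, mostly ferritin pseudogenes, and its counts were split in every library. Summed with the 3 genes that share most words, the week 3 and week 4 means of Ftl1 were 2.68 and 2.52 times those of control skin, and 2.70 and 2.55 times for Ftl1 alone.

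Both ferritins had their lowest group mean in sham skin, where Fth1 held 132, 104 and 81.3 CPM and Ftl1 46.4, 41.6 and 32.1 CPM. Fth1 rose against sham in control skin of week 1 (1.07, SE 0.176, adjusted p = 0.0300), week 3 (1.09, SE 0.208, 0.0178) and week 4 (0.74, SE 0.166, 0.0496), and it missed the threshold in week 2 (0.70, SE 0.198, 0.0933). In radiated skin it rose in week 2 (0.98, SE 0.228, adjusted p = 0.0438), week 3 (2.38, SE 0.539, 0.0205) and week 4 (1.83, SE 0.245, 0.00126). Ftl1 rose against sham in control skin of week 1 (0.86, SE 0.170, adjusted p = 0.0390) and in radiated skin of weeks 3 (2.32, SE 0.527, 0.0206) and 4 (1.78, SE 0.180, 0.000417). For Fth1, then, skin labelled control also differed from sham skin. The radiated calls of week 3 were lost without sham replicate 2 or 3 for both chains, and without sham replicate 1 for Ftl1 (adjusted p up to 0.0741 for Fth1 and 0.0746 for Ftl1). The week 4 control call of Fth1 was lost in all leave-outs except that of sham replicate 1 (up to 0.147), the week 3 control call without sham replicate 2 or 3 (up to 0.0578), and the week 1 control calls of both in all except sham replicate 1 and control replicate 1. The week 2 radiated call was lost without sham replicate 2 or 3 or radiated replicate 2, 3 or 4. The genes most like Ftl1 over 35 libraries included Grn (r = 0.947), a lysosomal growth factor precursor, and C1qc (0.941), a complement chain made by macrophages. For Fth1 the first was Tln1 (0.915).

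Of the uptake route, transferrin rose in radiated skin of week 3 and its receptor did not pass any test. Trf, the iron carrier, held 234, 110, 153 and 88.3 CPM in radiated and 59.9, 79.3, 89.0 and 66.0 CPM in control skin of week 3, higher in 4 of 4 pairs with a narrow overlap. It rose by 1.02 (SE 0.291, adjusted p = 0.0286), and missed the threshold with the pairs as a block (0.0589). In week 4 it stood at 181, 169, 152 and 165 CPM against 131, 78.1, 64.4 and 87.1 CPM, without overlap (log2 ratio 0.89, SE 0.191, no test). In week 1 the order was the other way: 157, 46.9, 83.9 and 87.4 CPM in radiated against 150, 135, 188 and 152 CPM in control skin, a difference that missed the threshold (-0.73, SE 0.290, adjusted p = 0.304).

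Trf in that control skin was above sham, at 55.7, 92.5 and 41.7 CPM, by 1.30 (SE 0.254, adjusted p = 0.0382, lost in 5 of 7 leave-outs, all but sham replicate 1 and control replicate 1), and so was radiated skin of week 4, by 1.44 (SE 0.257, adjusted p = 0.00454). Adipocyte genes were the ones most like Trf over the 19 sham and control libraries: Adipoq (r = 0.914), Plin1 (0.908) and Cfd (0.901). Summed adipocyte markers ranged from 608 to 1220 CPM in control skin of week 1, from 232 to 576 CPM in radiated skin of week 1 and from 224 to 482 CPM in sham skin. In week 4 they ranged from 351 to 449 CPM in radiated and from 271 to 904 CPM in control skin, and the part of adipocyte content in the Trf differences was not tested. Trf shares 63.8% of its 31-base words with other genes, nearly all with Gm20425, a model on the same strand that overlaps it and was not analysed here. The Trf count was not a whole number in any of the 35 libraries, so reads had been split, and the Trf values leave out an unknown share of reads that may come from Trf.

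Tfrc brings transferrin-bound iron into cells. Its group means lay between 34.2 ± 10.2 CPM in radiated skin of week 1 and 63.5 ± 16.7 CPM in control skin of week 3. In week 3 the radiated libraries held 75.9, 62.6, 33.9 and 40.1 CPM against 53.3, 86.4, 49.0 and 65.3 CPM, and in week 4 they held 45.9, 51.8, 49.0 and 57.8 CPM against 57.0, 47.5, 41.7 and 48.2 CPM. The ranges overlapped in all 4 weeks. In week 2 radiated skin was lower in 4 of 4 pairs, at 50.4 ± 10.6 against 62.9 ± 11.2 CPM (adjusted p = 0.500). Radiated skin of week 1 was below sham without overlap (log2 ratio -0.77, SE 0.265) but missed the threshold (adjusted p = 0.189). The gene most like Tfrc over 35 libraries was Cpsf2 (r = 0.823).

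**Figure D3:**
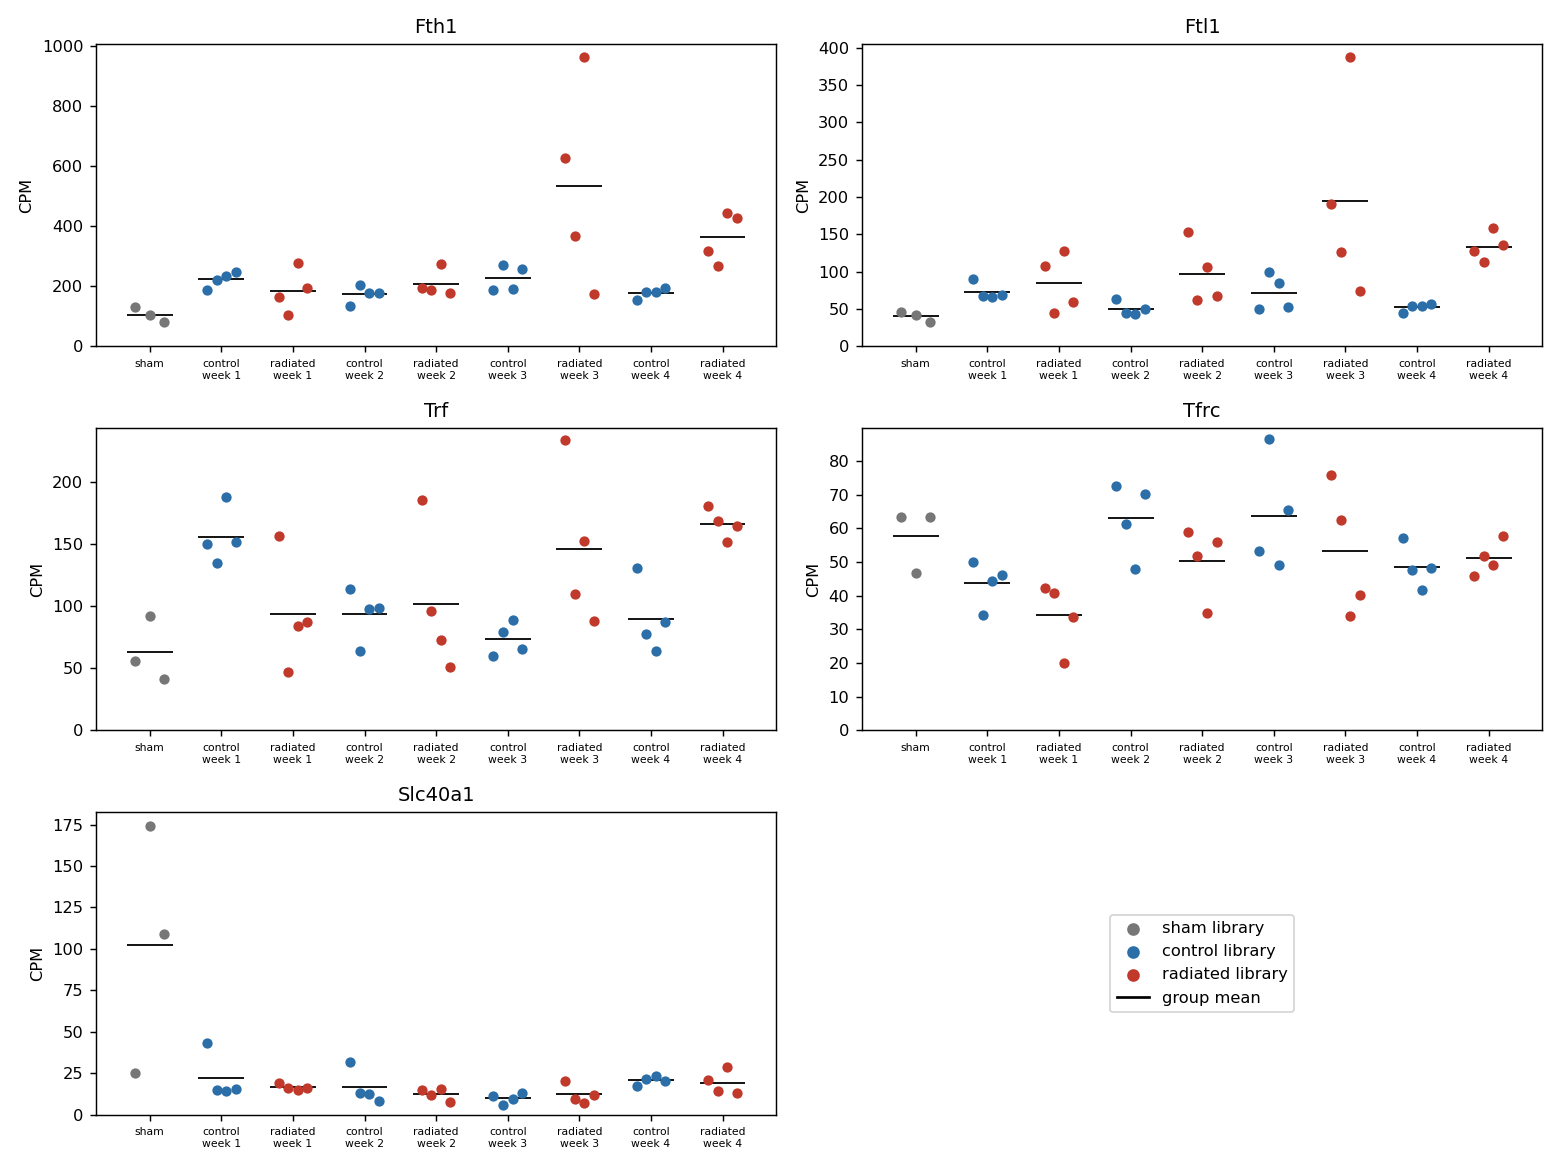
Fth1, Ftl1, Trf, Tfrc and Slc40a1 levels in CPM in each library, by group, on linear axes from 0. Points are libraries and bars are group means. The ferritin means are highest in radiated skin of weeks 3 and 4, radiated and control Tfrc overlap in each week, and the sham libraries at 109 and 174 CPM stand above all others for Slc40a1.

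Counted over the set, no member passed the threshold between radiated and control skin in week 1, as no gene of 17578 did (0%, with 2477 genes at an unadjusted p under 0.05). In week 2 no member passed, and 1 gene of 17345 did (0.00577%). With the pairs as a block 641 genes passed (3.7%) and Slc11a1 was among them. In week 3, 6 of the 9 tested members passed, 5 higher (Lcn2, Hp, Ftl1, Slc11a1, Trf) and 1 lower (Hamp2). With no filter on low counts 6 passed as well. Lcn2 and Hamp2 passed that filter through the group where each is high, so nothing is read from their place in the count. Of all genes 27.2% passed that week, 13.6% higher and 13.6% lower, and 21.1% with the pairs as a block. With total-count scaling 76.1% of the calls of week 3 were increases against 50.1% with TMM, and the median log2 ratio of all genes shifted by 0.24. All 6 members kept their direction with it.

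Hamp2, Lcn2, Hp and Slc11a1 kept an adjusted p under 0.05 in week 3 under each alternative run, the fit with no filter among them, and with each library left out, the highest values being 0.0216, 0.0205, 0.0153 and 0.00932. The Ftl1 call was lost in 6 of the 8 leave-outs, all but radiated replicates 2 and 4 (adjusted p up to 0.111). The Trf call was lost in 5, radiated replicates 1 and 3 and control replicates 1, 2 and 4 (up to 0.0798), and Fth1 passed without radiated replicate 4 (adjusted p = 0.00622). In week 4, 48.4% of all genes passed (24.2% higher and 24.2% lower), and nothing is read from the members' differences against that share, since the choice of the set used them.

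**Figure D4:**
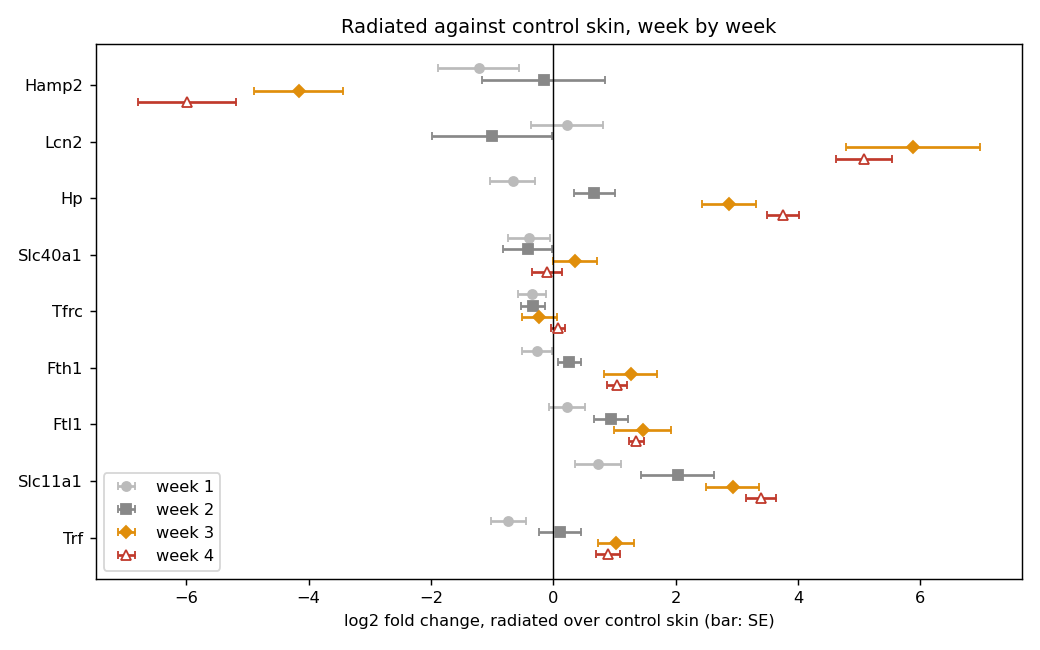
Log2 ratio of radiated over control skin (horizontal axis, bars are standard errors) for the 9 members tested, in weeks 1 to 4. Week 4 has open symbols because the choice of the genes used that comparison. Hamp2 lies at -4.17 and -5.99 in weeks 3 and 4, Lcn2 at 5.88 and 5.08, and in week 4 Slc40a1 lies at -0.10 and Tfrc at 0.08.

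Against sham skin, radiated skin had 1 member past the threshold in week 1 (Slc40a1, lower), where 1.75% of genes passed (0.543% higher, 1.21% lower). In week 2 it had 3 (Hp and Fth1 higher, Slc40a1 lower) against 5.06% of genes (2.16% higher, 2.9% lower), and with total-count scaling only Slc40a1 of these passed. That scaling lowered the share of increases among all calls of week 2 from 42.7% to 28.7%. In week 3 it had 7 of 9 (Lcn2, Hp, Fth1, Ftl1 and Slc11a1 higher, Hamp2 and Slc40a1 lower) against 18.2% of genes (10.4% higher, 7.75% lower), and again nothing is read from the place of Lcn2 and Hamp2 in it. In week 4 Hamp2 is left out of the count, since its radiated level of that week chose the genes. Of the other 8 members tested 7 passed, where 26.7% of genes did (15.2% higher, 11.5% lower). Slc40a1 was lower and Lcn2, Hp, Fth1, Ftl1, Slc11a1 and Trf were higher. Nothing is read from this count against that share, since the choice of the set used the same radiated libraries. Lcn2 also passed the filter on low counts through them.

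Control skin had 3 members past the threshold against sham in week 1 (Fth1, Ftl1 and Trf, all higher), where 4.92% of genes passed (3.28% higher, 1.65% lower). It had none in week 2, where 2.44% of genes passed (1.37% higher, 1.06% lower) and Slc40a1, Fth1 and Hamp2 were under an unadjusted p of 0.05. It had Fth1 higher and Slc40a1 lower in week 3 (11.4% of genes, 5.18% higher and 6.19% lower) and again in week 4 (3.65%, 1.76% higher and 1.9% lower). Total-count scaling moved the share of increases among all calls in control skin from 66.5% to 43.5% in week 1, from 56.3% to 38.1% in week 2 and from 45.5% to 22.6% in week 3. The number of members called in control skin ranged from 0 (without sham replicate 2 or 3) to 5 in the leave-outs of week 1.

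Genes of the pathways that control hepcidin moved in both directions. Of 23 listed genes tested in week 3, 3 were higher and 9 lower in radiated skin (13.6% of all genes passed in each direction), with a median log2 ratio of -0.26 against 0.08 over all genes tested. In week 4, 6 of 24 were higher and 9 lower (24.2% of all genes in each direction), with a median of -0.28 against 0.017. Il6, the cytokine that induces Hamp through STAT3, rose from 1.33 ± 0.735 to 27.9 ± 20.3 CPM in week 3 (log2 ratio 4.43, SE 0.732, adjusted p = 0.00325). In week 4 it was at 0.207 ± 0.119 CPM in control and 17.6 ± 11.6 CPM in radiated skin. It passed the filter on low counts in that week only through radiated skin, so it is counted among the increases for that reason and its test is not given. Hfe, an iron-sensing partner of transferrin receptor, rose by 1.66 in week 3 (SE 0.408, adjusted p = 0.0162) and by 1.28 in week 4 (SE 0.167, adjusted p = 0.000185).

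Genes of the BMP route moved both ways, and the rule names those with the largest decreases. Bmp6, the ligand that signals iron stores to the liver, fell by 1.74 in week 3 (SE 0.324, adjusted p = 0.00515), from 11.0 ± 1.02 to 3.23 ± 1.38 CPM. Hjv, the BMP co-receptor hemojuvelin, fell by 1.48 (SE 0.449, adjusted p = 0.0360), a call lost with the pairs as a block (0.0576). Skeletal muscle, whose summed markers were 3020 to 7910 CPM in these radiated and 17600 to 33300 CPM in the control libraries, also expresses Hjv, and its part in the difference was not tested. Bmp2 fell by 2.42 in week 4 (SE 0.213, adjusted p = 1.83e-05), from 75.7 ± 11.6 to 14.1 ± 4.22 CPM. Il22ra1, a subunit of the interleukin 22 receptor, fell by 1.89 in week 4 (SE 0.217, adjusted p = 8.66e-05). Outside the rule, and chosen after their values were seen, the BMP inhibitor Smad6 was higher in radiated skin by 1.04 against control skin of week 3 (adjusted p = 0.0202, and 0.0691 with the block). Both were below the sham mean of 11.2 CPM, radiated skin at 3.67 CPM (log2 ratio -1.55, adjusted p = 0.0421) and control skin at 1.81 CPM (-2.63, adjusted p = 0.0131). In week 4 the inhibitor Smad7 rose by 0.87 (adjusted p = 0.00014) and the receptor Acvr1 by 0.59 (adjusted p = 0.000672). Id1, a target of BMP signalling, missed the threshold in both weeks (adjusted p = 0.914 and 0.0588, and 0.0197 in week 4 with the block). Whether any of these act on Hamp2 in skin was not measured.

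**Figure D5:**
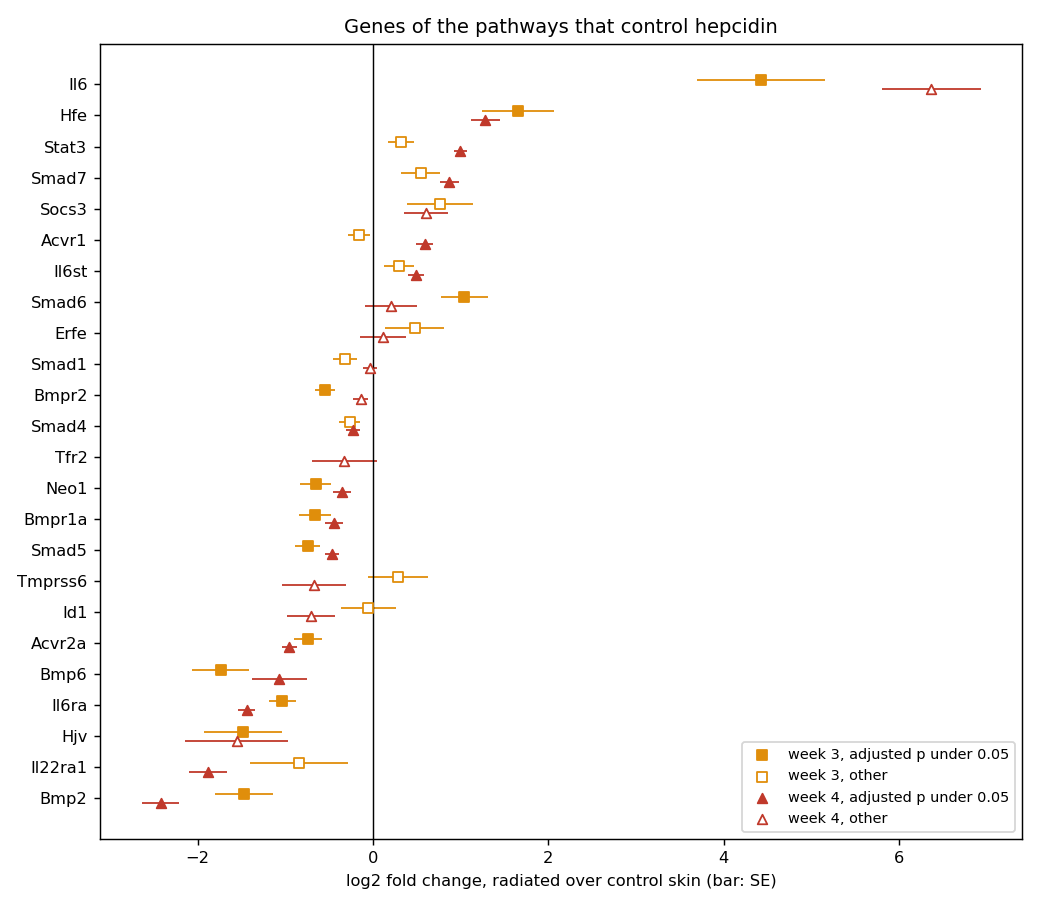
Log2 ratio of radiated over control skin (horizontal axis, bars are standard errors) for the 24 listed genes of hepcidin control in weeks 3 and 4, with filled symbols at an adjusted p under 0.05. Il6 lies at 4.43 in week 3, and its week 4 symbol is open because it passed the filter on low counts only through radiated skin. Bmp2 and Bmp6 are filled on the left in both weeks.

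Against sham skin, a gene of the interleukin 6 route was higher in control skin too. Socs3, the feedback inhibitor that STAT3 induces, had 35.7 ± 13.7 CPM in sham skin (n = 3). Control skin held 188 ± 103 CPM in week 1 (log2 ratio 2.39, SE 0.418, adjusted p = 0.0322), 220 ± 71.8 CPM in week 3 (2.61, SE 0.329, 0.00577) and 135 ± 55.1 CPM in week 4 (1.91, SE 0.369, 0.0335). Radiated skin held 134 ± 32.2 CPM in week 1 (1.90, SE 0.290, adjusted p = 0.0138), 365 ± 164 CPM in week 3 (3.40, SE 0.487, 0.00597) and 204 ± 20.7 CPM in week 4 (2.56, SE 0.254, 0.00039). Socs3 missed the threshold in week 2 in control skin (2.27, adjusted p = 0.125) and in radiated skin (3.09, adjusted p = 0.0623). Of the 24 genes, 11 passed against sham in radiated skin of week 3 and 14 in week 4, where 18.2% and 26.7% of all genes did. In control skin 3, 1, 6 and 2 passed in weeks 1 to 4, against 4.92%, 2.44%, 11.4% and 3.65% of all genes.

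Among genes of iron uptake and movement inside cells, 7 of 19 were higher and 2 lower in week 3 (median 0.08, the same as over all genes, of which 27.2% passed). In week 4, 8 were higher and 4 lower, with a median of 0.10 against 0.017 over all genes, of which 48.4% passed. With the pairs as a block 9 of these 12 passed, where 42.7% of all genes did. Slc39a14, the transporter ZIP14 that takes up iron not bound to transferrin, rose from 44.8 ± 13.5 to 204 ± 96.3 CPM in week 3 (2.22, SE 0.385, adjusted p = 0.00392). In week 4 it rose from 18.3 ± 2.18 to 219 ± 43.3 CPM (3.59, SE 0.168, adjusted p = 1.36e-06). Steap1, of the family of metalloreductases, had means of 2.56 and 3.47 CPM in radiated skin of the same weeks. Between radiated and control skin it passed the filter on low counts only in those weeks, so it is counted among the increases for that reason and its test is not given. Scara5, a receptor for ferritin, fell by 1.66 and 1.87 (SE 0.317 and 0.120, adjusted p = 0.00565 and 3.89e-06), with 101 CPM in control skin of both weeks.

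The ferroxidases, which oxidise exported iron for loading onto transferrin, moved apart. In week 4, ceruloplasmin (Cp) rose from 31.9 ± 6.36 to 98.5 ± 25.3 CPM (1.63, SE 0.206, adjusted p = 0.000153), whereas hephaestin (Heph) fell from 48.5 ± 4.54 to 16.2 ± 5.14 CPM (-1.58, SE 0.229, 0.000364). Hephl1 fell by 0.71 (SE 0.241, adjusted p = 0.0348), a call lost with the pairs as a block (0.0954). In week 3 Heph fell by 1.88 (SE 0.477, adjusted p = 0.0181). All 3 ferroxidases passed in week 4, where 48.4% of all genes did, and 1 in week 3 against 27.2% (2 with the block, against 21.1%). Cp was also the gene most like Trf over the 35 libraries (r = 0.842). Of 3 iron sensing genes, 1 passed in week 3 and 2 in week 4, against the same shares of 27.2% and 48.4%. Fbxl5, which targets the iron regulatory protein IRP2 for degradation, rose by 0.99 in both weeks (SE 0.243 and 0.141, adjusted p = 0.0158 and 0.000331). Ireb2, which encodes IRP2, rose by 0.21 in week 4 (SE 0.079, adjusted p = 0.0491, and 0.0892 with the block).

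Of 10 genes that scavenge haem and haemoglobin, 4 were higher and 1 lower in week 3, where 27.2% of all genes passed. With the pairs as a block 3 passed in week 3, where 21.1% of all genes did. In week 4, 7 were higher and 1 lower, where 48.4% of all genes passed. The medians of the list were 0.69 and 0.71 in weeks 3 and 4, against 0.08 and 0.017 over all genes. Hpx, the haem carrier hemopexin, was at 0.166 ± 0.272 CPM in control and 8.95 ± 4.00 CPM in radiated skin of week 3, and at 0.247 ± 0.165 and 15.5 ± 10.1 CPM in week 4. It passed the filter on low counts only in comparisons with radiated skin of those weeks, so it is counted among the increases for that reason and its test is not given. Lrp1, its receptor, rose by 1.85 and 2.01 (SE 0.303 and 0.108, adjusted p = 0.00314 and 2.11e-06). Flvcr1, a haem exporter, fell by 1.41 in week 3 (SE 0.244, adjusted p = 0.00389) and by 0.57 in week 4 (SE 0.198, adjusted p = 0.0373, and 0.0914 with the block). None of the red blood cell markers tested passed in week 3 or 4, and their summed level ranged from 23.6 to 87.8 CPM in radiated skin of those weeks and from 24.3 to 81.7 CPM in control skin.

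Of 9 genes of haem synthesis 2 were higher in week 3, where 27.2% of all genes passed, among them Ppox by 0.80 (SE 0.223, adjusted p = 0.0259). With the pairs as a block 1 of the 9 passed in week 3, where 21.1% of all genes did. In week 4, where 48.4% of all genes passed, 2 were lower, Alad by 1.32 on the log2 scale (log2 ratio -1.32, SE 0.276, adjusted p = 0.00327) and Uros (-0.51, SE 0.161, 0.0255, and 0.0638 with the block). Of the 3 further withholding genes, lactoferrin (Ltf) had too few counts in either week, and Slc22a17, a receptor for lipocalin 2, and Bdh2, an enzyme proposed to make a mammalian siderophore, did not pass in any comparison of radiated with control skin.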

How the data were processed

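Per the labels' protocols and the submitters' processing notes, total RNA of frozen skin biopsies was sequenced commercially, trimmed with Trim Galore 0.6.7 and quantified with kallisto 0.46.2 (build mm10), and the authors used DESeq2. The deposited table holds estimated counts per gene, unscaled. Between 29.5% and 32.5% of a library's values are not whole, since kallisto splits reads that fit several transcripts, and they were rounded here. Genes were filtered with filterByExpr, libraries scaled with TMM, and groups compared with the quasi-likelihood F test of edgeR 4.0.16 (R 4.3.3) with Benjamini-Hochberg adjustment over all tested genes, threshold 0.05. Each comparison was fitted on its own groups, and all 8 comparisons with sham share its 3 libraries. The SE is the log2 fold change divided by the square root of F. The fits were tested on simulated data.

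The members and lists were chosen with earlier results of these data known. Besides the members, each list could name its 2 largest increases and 2 largest decreases per comparison (adjusted p under 0.05, mean of at least 1 CPM), each member its 3 most alike genes, and marker genes could be named. No alike genes are given for Hamp, whose counts are too low. Some genes that the rule would name are not reported here. Pairing rests on 19 mice for 35 libraries. Deviations from group means of same-numbered libraries correlated at 0.071, 0.173, 0.053 and -0.02 on average in weeks 1 to 4. Nothing else says that replicates of a group were processed separately, so p-values measure the spread between these samples. The floor of 3 counts covers counting error only, and no molecular identifiers are named in the labels. The SE comes from the fitted model and includes the spread between libraries.

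Alternatives were the replicate block, DESeq2 size factors, total-count scaling, no filter, the tests of DESeq2 1.42.0, 1 fit of all libraries and leaving out each library. Promoters are from RefSeq (GRCm38.p6), where 7 of 10 members matched, and positions and transcripts from GENCODE M21 (GRCm38).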

Additional observations from a re-analysis of the deposited data

Results flagged for a closer look

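The radiated minus control difference changed over weeks 1 to 3 for Lcn2 (adjusted p = 0.0162) and Hp (adjusted p = 0.0101) in edgeR's interaction test. Leaving out 1 replicate number at a time, between 0 and 2 members passed that test.

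In 10 of 80 groups of 4 libraries, 1 library stood apart from the other 3 by Dixon's 95% criterion. For normally distributed values chance meets it in about 1 group in 20. These CPM values were not shown to be normal, so nothing is read from the 10 against that rate. The Hamp cases rest on few counts: 0.435 CPM in radiated week 1, 0.0437 CPM in control week 2, 0.310 CPM in radiated week 2 and 0.134 CPM in radiated week 4. In the last 3 of these groups the other libraries were all at 0, so any count would have met the criterion. Hamp2 reached 0.776 CPM in 1 radiated library of week 4, and Lcn2 reached 2.84 CPM in 1 control library of week 3. Slc40a1 reached 43.1 CPM and Ftl1 90.0 CPM in control replicate 1 of week 1. Fth1 reached 276 CPM in 1 radiated library and Slc11a1 4.32 CPM in 1 control library of week 2. All 10 were the highest of their group.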

How the results depend on the processing

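Between radiated and control skin, the number of genes past the threshold was 4805 in week 3 and 8643 in week 4, and leaving out 1 library at a time gave 3209 to 5071 and 7548 to 8582. In week 1 (0 genes) it was 419 with the Wald test of DESeq2, 23 with 1 fit of all libraries and 0 to 232 in the leave-outs, with 0 to 1 member. In week 2 (1 gene) it was 641 with the replicate block (1 member), 2 without the filter on low counts, 711 with the Wald test (2 members), 544 with 1 fit of all libraries (1 member) and 0 to 206 in the leave-outs. With the replicate block 3721 genes passed in week 3, and 716 against 597 in the test over weeks 1 to 3. That test gave 1369 with the likelihood ratio test of DESeq2 and 0 to 527 genes, 0 to 2 members, in the leave-outs. The block changed no call of a member other than Slc11a1 in week 2 and over weeks 1 to 3 and Trf in week 3.

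Against sham, radiated skin of week 1 gave 561 genes without the filter, 1211 with the Wald test (2 members), 1224 with 1 fit of all libraries, and 1 to 543 (0 to 2 members) in the leave-outs. Radiated skin of week 2 gave 2404 with the Wald test (5 members), 3257 with 1 fit, 1 member with total-count scaling, and 107 to 1398 (0 to 3 members) in the leave-outs. Radiated skin of week 3 gave 6402 with 1 fit and 1134 to 3965 (4 to 8 members) in the leave-outs. Control skin gave 2890, 1899, 3440 and 1821 genes with the Wald test in weeks 1 to 4, with 5, 3 and 4 members in weeks 1 to 3. In week 2 it gave 734 without the filter (1 member) and 1559 with 1 fit (1 member), and in week 4 it gave 1 member with DESeq2 size factors and 1 with 1 fit. Its leave-outs ranged over 0 to 1803, 0 to 2199, 629 to 2438 and 0 to 1705 genes and 0 to 5, 0 to 2, 1 to 2 and 0 to 2 members.

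The log2 ratio of Slc40a1 between radiated and control skin of week 4 changed sign, from -0.356 to 0.05 in the leave-outs. Of the member ratios under the other alternatives, leave-outs aside, 332 were judged the same, 27 passed the threshold only under the alternative and 9 lost it. The causes were not tested. The 332 include the radiated against control ratios of week 4 and the ratio of Hamp2 in radiated skin of week 4 to sham. Those were set against no threshold. For them the same meant an unchanged sign and a shift smaller than the SD of log2 CPM within groups. Depth limits Hamp, with 24 counts at most, and Hamp2 and Lcn2 where they are near 0.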
